A study of Homo sapiens with 48 samples.

Results

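The genes described here are 30 human genes of cholesterol and fatty acid synthesis, taken from the deposited tables by gene symbol, with no measured value in the rule. Earlier results of these data were known when the genes were chosen. They comprise 7 genes of the mevalonate arm, 11 of the squalene and sterol arm, 4 regulators and sterol carriers, and 8 lipogenic enzymes. In GRO-seq, 29 of the 30 had a row among 14745 genes, and in RNA-seq all 30 had a row among 15535 genes. CYP51A1, the lanosterol demethylase, had no GRO-seq row.

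The cells were MCF10A-1, an established line of human breast epithelium, and the study asked how gene activity in these cells responds to SATB1 and to benzo[a]pyrene. GRO-seq reads RNA under synthesis by polymerases that run on in isolated nuclei. RNA-seq reads the accumulated mRNA. Each assay had 24 libraries, 4 for each of 6 groups. SATB1 cells, which stably express this chromatin-organising nuclear protein, were untreated, exposed to 4 µM benzo[a]pyrene for 3 hours, or exposed for 3 days, and vector cells were handled in the same 3 ways. Benzo[a]pyrene is a polycyclic aromatic hydrocarbon that binds the aryl hydrocarbon receptor (AHR). All groups were grown in DMEM/F12 with insulin, hydrocortisone, cholera toxin, epidermal growth factor and fetal bovine serum, which replaced horse serum. Serum carries lipoprotein cholesterol, and insulin acts on lipogenic genes in many cell types, so every group had both supplies. Whether the SATB1 line was 1 clone, or the libraries of a group came from separate cultures, is not stated in the labels, so the p-values cover the spread between the libraries at hand, and part of it may be technical.

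For each assay the authors' deposited table lists, gene by gene and for 5 numbered contrasts, a linear fold change with its p-value before adjustment. The headers do not name the groups that were compared. Nor do they state that a contrast number stands for the same comparison in both assays. Contrasts are therefore called by number here, contrasts may share groups, and a gene is called higher or lower where its fold change lay above or below 1 with a Benjamini-Hochberg adjusted p under 0.05 over the whole table. The error after ± is the standard error of a log2 fold change implied by its p-value. The tables hold no level per library, so depth, absolute expression and the spread between libraries are unknown, and the labelled cell type could be checked only through changes of its markers. In RNA-seq, SATB1 was 112-fold higher in contrast 1 in the authors' deposited table. CYP1A1, the classical AHR target, was 195-fold, 36-fold, 45.6-fold and 4.79-fold higher in RNA-seq in contrasts 2, 3, 4 and 5 in the same authors' deposited table. Contrast 1 also held changes in genes of other cell types: in RNA-seq 5 of 9 fibroblast markers were higher and 1 was lower, with COL1A2 at 681-fold in the authors' deposited table, and 4 of 9 basal epithelial markers were higher and 5 lower, where 23.2% of all genes were higher and 20.7% lower. CDKN2A, a gene of the 9p21 region known as deleted in MCF10A, was 301-fold higher in RNA-seq in contrast 1 in the authors' deposited table. Markers changed in other contrasts too. In RNA-seq contrast 3, 2 of 9 basal epithelial markers were higher and 6 lower, and 3 of 9 fibroblast markers were higher and 0 lower. Of all genes, 18.3% were higher and 17.8% lower there. In RNA-seq contrast 5, 3 of 9 basal epithelial markers were higher and 3 lower, and 0 of 9 fibroblast markers were higher and 4 lower. Of all genes, 10.5% were higher and 10.9% lower there. The part of these marker differences in the lipid gene results was not tested.

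Cells make cholesterol from acetyl-CoA through mevalonate, farnesyl pyrophosphate, squalene and lanosterol, and they make fatty acids from the same acetyl-CoA through malonyl-CoA. Both routes are driven by the membrane-bound transcription factors SREBP-1 and SREBP-2, which are released from the endoplasmic reticulum when sterols are scarce and held there by INSIG proteins when sterols are abundant. SREBP-2 is best known for the sterol genes and the SREBP-1c form of SREBP-1 for the lipogenic genes, so the enzymes often change as a block.

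In contrasts 1, 2 and 3 the 30 genes did not change as a block, since mRNA calls went both ways. In contrasts 4 and 5 all mRNA calls were downward. In RNA-seq, contrast 3 had the most calls: 11 genes (36.7%) were higher, where 18.3% of all genes were, and 9 (30%) were lower, where 17.8% of all genes were. Contrast 5 had 12 genes lower (40.0%), against 10.9% of all genes, and 0 higher, against 10.5%; at an unadjusted p under 0.05 the counts were 17 lower and 0 higher. In contrast 1, 6 genes were higher (20.0%) where the background was 23.2%, and 10 were lower (33.3%) where it was 20.7%. Contrast 2 had 4 genes higher (13.3%, background 9.64%) and 3 lower (10.0%, background 9.63%), shares near those of all genes. At an unadjusted p under 0.05 the counts of contrast 2 were 4 higher and 9 lower. Contrast 4 had 4 lower (13.3%, background 4.9%) and 0 higher (background 3.87%), and 9 and 0 at an unadjusted p under 0.05. The median log2 fold change of the 30 genes was 0.01 in contrast 3 and -0.08 in contrast 5, and that of all genes was -0.01 in each.

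**Figure D1:**
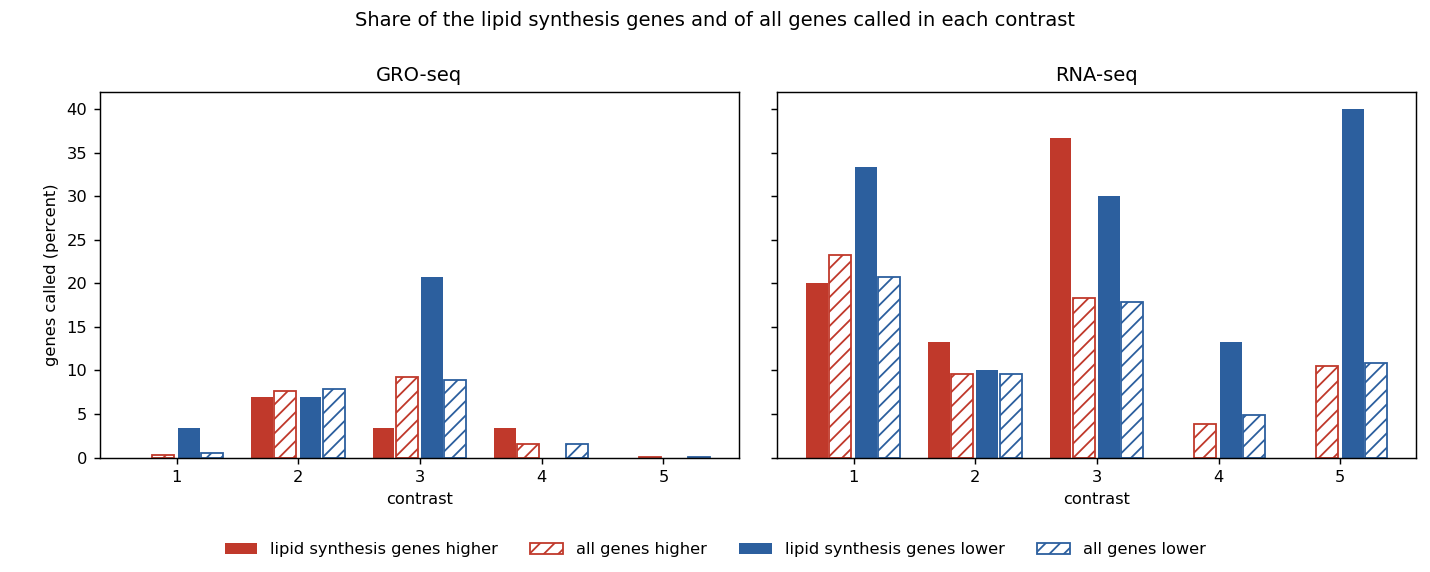
Percent of the lipid synthesis genes (filled bars) and of all genes (hatched bars) called higher (red) or lower (blue) at an adjusted p under 0.05, for contrasts 1 to 5 in GRO-seq (29 genes) and RNA-seq (30 genes). In RNA-seq contrast 5 the bar of lipid genes called lower stands at 40.0% and that of lipid genes called higher is 0, while the bars of all genes stand at 10.9% lower and 10.5% higher.

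The 30 genes were measured more precisely than most. Their median implied standard error in RNA-seq was 0.038 on the log2 scale, where that of all genes lay between 0.057 and 0.059, and a smaller error lets smaller changes be called. Among the 7768 genes at or below the median error, the lipid genes in contrast 3 were higher in 9 of 25 (36%) and lower in 9 of 25 (36%), against 28.8% and 23.5% of such genes. In contrast 5, 12 of 24 (50.0%) were lower and 0 were higher, against 15.3% and 19.0% of the genes within the same limit on the error. In contrast 2 the lipid genes within that limit were higher in 3 of 25 (12.0%) and lower in 6 of 25 (24%), against 14.1% and 16.6% of such genes, so the balance of calls there turned downward with this choice. The changes themselves were small. Of 150 RNA-seq values, 59 were called and 3 of these reached 1.5-fold.

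Nascent RNA gave far fewer calls, with errors of 0.13 to 0.58 on the log2 scale. In GRO-seq contrast 3, 6 of 29 genes were lower (20.7%, against 8.92% of all genes) and 1 was higher (3.45%, against 9.23%). In contrast 2, 2 were higher (6.9%, against 7.63%) and 2 lower (6.9%, against 7.83%), and at an unadjusted p under 0.05 the counts were 6 higher and 3 lower. Contrast 1 had 1 gene lower (3.45%, background 0.495%) and 0 higher (background 0.292%), and contrast 4 had 1 higher (3.45%, background 1.58%) and 0 lower (background 1.53%). At an unadjusted p under 0.05 the counts of contrast 1 were 6 lower and 1 higher, and those of contrast 4 were 4 higher and 0 lower. Contrast 5 had no call by the Benjamini-Hochberg adjustment (background 0.115% higher and 0.122% lower), with 5 genes lower and 0 higher at an unadjusted p under 0.05. Of 145 GRO-seq values 13 were called, and 10 of these reached 1.5-fold.

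**Figure D2:**
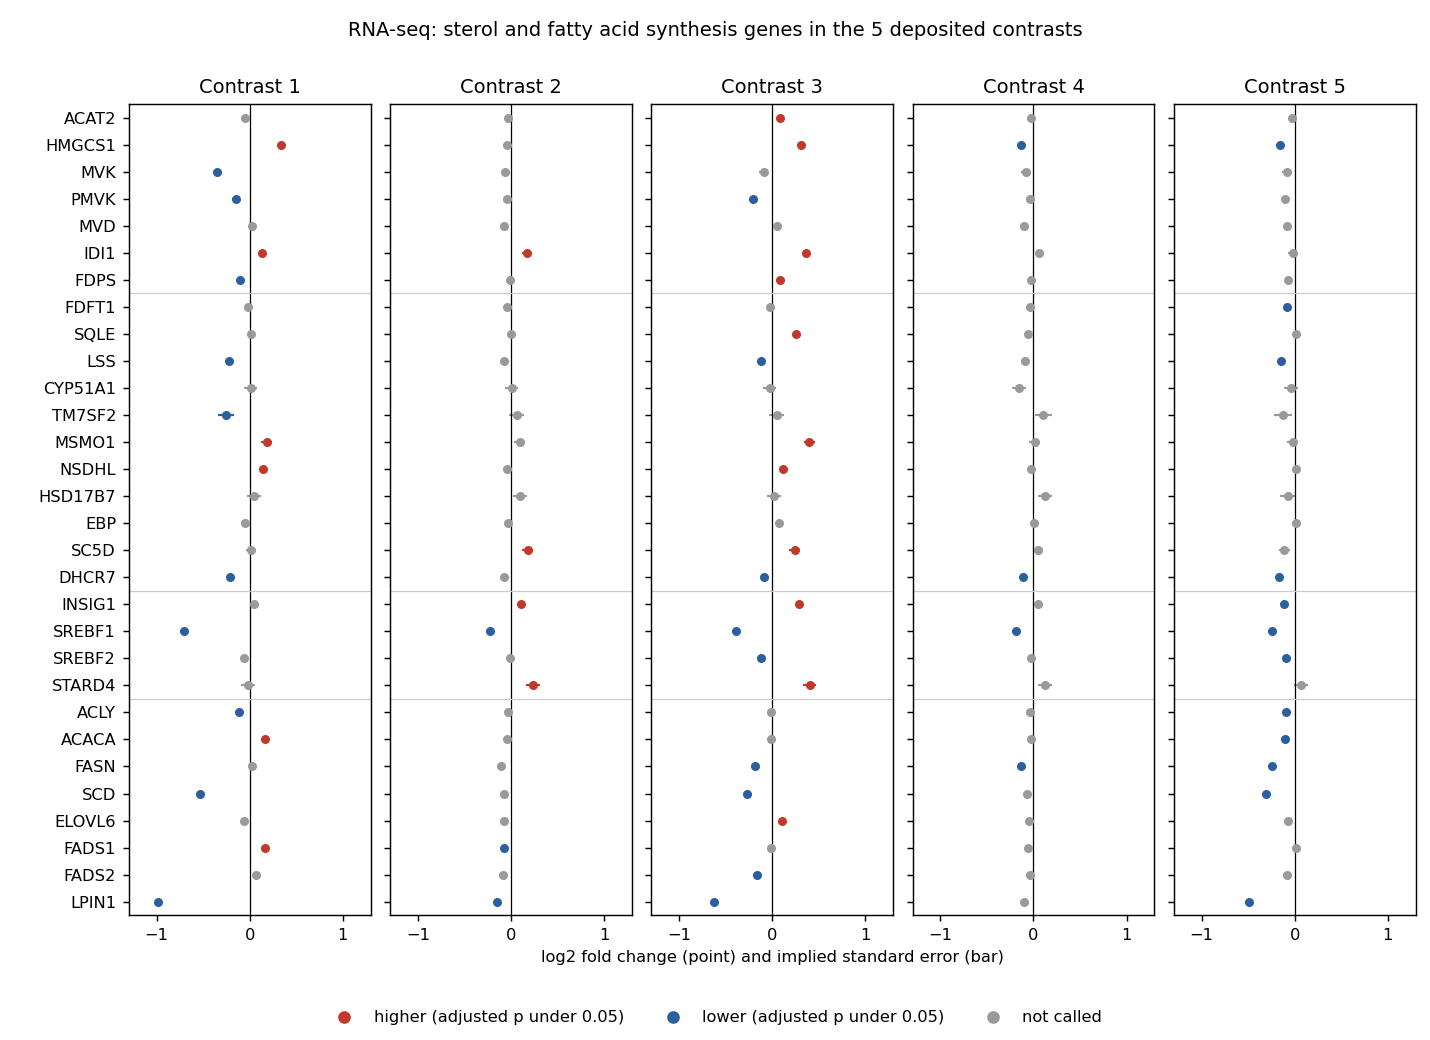
RNA-seq log2 fold change of each of the 30 genes (points) with its implied standard error (bars) in contrasts 1 to 5, ordered from the top by mevalonate arm, squalene and sterol arm, regulators and lipogenic enzymes. Red points are called higher, blue points lower and grey points neither; in contrast 5 the 12 coloured points all lie left of 0, and in contrast 3 there are 11 red and 9 blue ones.

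The 4 regulators and sterol carriers did not move together in mRNA. INSIG1 retains SREBPs in the endoplasmic reticulum and is itself an SREBP target, and STARD4 carries cholesterol between membranes. Both mRNAs were higher in contrasts 2 and 3: INSIG1 was 1.08-fold and 1.22-fold and STARD4 1.18-fold and 1.32-fold in the authors' deposited table. In contrast 5 INSIG1 was lower at 0.925-fold, while STARD4 was not called at 1.05-fold, in the authors' deposited table. The INSIG1 calls of contrasts 2 and 5 are close to the threshold, with Benjamini-Hochberg adjusted p-values of 0.042 and 0.044 from the deposited p. In GRO-seq, INSIG1 was 2.15-fold higher in contrast 2 in the authors' deposited table (log2 1.10 ± 0.32, Benjamini-Hochberg adjusted p = 0.019). It was not called in the other GRO-seq contrasts, where its values in the authors' deposited table ran between 0.681-fold and 1.26-fold. STARD4 reached 1.70-fold in GRO-seq contrast 3 in the authors' deposited table without a call (adjusted p by Benjamini-Hochberg 0.088).

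SREBF1, which encodes SREBP-1, did the opposite in mRNA. It was the 1 gene of the 30 called lower in every RNA-seq contrast, at 0.611-fold, 0.856-fold, 0.764-fold, 0.879-fold and 0.845-fold in contrasts 1 to 5 in the authors' deposited table. The Benjamini-Hochberg adjusted p-values of these changes were 1.8e-15, 5.97e-05, 1.71e-09, 0.00449 and 9.35e-05. Since contrasts may share groups, the 5 calls are not 5 independent observations. Its nascent RNA was not called in any contrast, with values of 1.62-fold, 1.63-fold, 1.66-fold, 0.941-fold and 0.85-fold in the authors' deposited table. SREBF2, which encodes SREBP-2, moved less. Its mRNA was lower in contrasts 3 and 5, at 0.923-fold and 0.940-fold in the authors' deposited table, and its nascent RNA was not called, between 0.981-fold and 1.32-fold there.

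**Figure D3:**
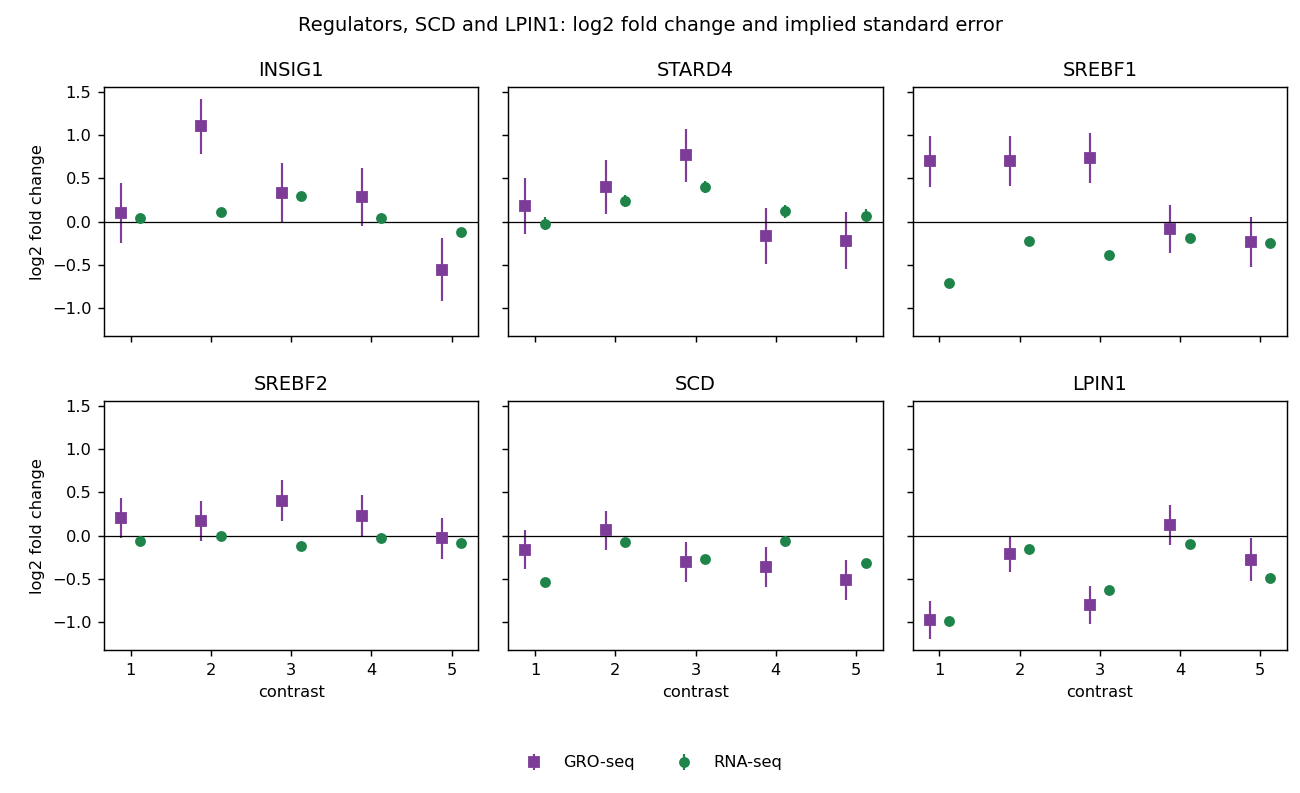
Log2 fold change (points) and implied standard error (bars) of INSIG1, STARD4, SREBF1, SREBF2, SCD and LPIN1 in contrasts 1 to 5, GRO-seq as squares and RNA-seq as circles. For SREBF1 the squares of contrasts 1 to 3 stand at 0.70 to 0.73 and the circles at -0.71 to -0.22, and for LPIN1 squares and circles lie below 0 together in contrasts 1, 2, 3 and 5.

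The reference promoters of genes that went up in mRNA in contrast 3, of both SREBP genes and of SCD are shown. Textbook SREBP control links these genes, while their matches to the motifs searched differ. Each window runs from 250 bases before the annotated start to 50 bases from it on, 5′ to 3′ on the gene's strand, and comes from the RefSeq promoter table for GRCh38.p14. Capitals mark matches, on either strand, to the sterol regulatory element TCACNCCAC, the E-box CACGTG and the NF-Y box CCAAT, none of which contains another.
INSIG1, chr7:155297628-155297927, plus strand: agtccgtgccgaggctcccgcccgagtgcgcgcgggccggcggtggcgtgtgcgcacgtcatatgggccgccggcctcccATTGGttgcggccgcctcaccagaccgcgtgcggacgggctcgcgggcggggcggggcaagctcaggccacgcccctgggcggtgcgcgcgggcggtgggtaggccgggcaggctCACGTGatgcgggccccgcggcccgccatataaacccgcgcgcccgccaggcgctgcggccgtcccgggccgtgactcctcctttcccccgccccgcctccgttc
STARD4, chr5:111512486-111512785, minus strand: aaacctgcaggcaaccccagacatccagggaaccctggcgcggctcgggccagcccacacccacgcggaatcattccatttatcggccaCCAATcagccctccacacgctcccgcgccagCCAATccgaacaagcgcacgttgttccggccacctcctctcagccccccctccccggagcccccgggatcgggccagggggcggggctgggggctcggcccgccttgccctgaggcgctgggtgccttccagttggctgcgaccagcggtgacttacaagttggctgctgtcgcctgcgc
HMGCS1, chr5:43313363-43313662, minus strand: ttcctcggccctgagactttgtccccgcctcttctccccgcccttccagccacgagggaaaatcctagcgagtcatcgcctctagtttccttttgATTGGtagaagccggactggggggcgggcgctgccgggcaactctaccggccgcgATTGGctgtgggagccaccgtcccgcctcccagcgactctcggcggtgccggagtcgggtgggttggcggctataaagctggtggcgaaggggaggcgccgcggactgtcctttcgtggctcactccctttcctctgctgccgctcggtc
MSMO1, chr4:165327419-165327718, plus strand: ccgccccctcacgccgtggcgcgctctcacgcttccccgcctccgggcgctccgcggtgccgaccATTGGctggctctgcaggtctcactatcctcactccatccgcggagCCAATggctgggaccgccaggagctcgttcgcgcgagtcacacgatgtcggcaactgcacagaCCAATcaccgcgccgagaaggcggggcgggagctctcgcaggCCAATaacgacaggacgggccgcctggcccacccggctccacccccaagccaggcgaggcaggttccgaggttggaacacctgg
SREBF2, chr22:41832855-41833154, plus strand: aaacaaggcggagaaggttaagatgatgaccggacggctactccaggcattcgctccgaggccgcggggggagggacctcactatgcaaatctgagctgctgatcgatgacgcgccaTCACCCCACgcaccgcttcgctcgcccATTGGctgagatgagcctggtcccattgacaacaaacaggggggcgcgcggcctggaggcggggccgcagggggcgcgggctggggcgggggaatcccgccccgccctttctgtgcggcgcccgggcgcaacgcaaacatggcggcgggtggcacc
SREBF1, chr17:17836937-17837236, minus strand: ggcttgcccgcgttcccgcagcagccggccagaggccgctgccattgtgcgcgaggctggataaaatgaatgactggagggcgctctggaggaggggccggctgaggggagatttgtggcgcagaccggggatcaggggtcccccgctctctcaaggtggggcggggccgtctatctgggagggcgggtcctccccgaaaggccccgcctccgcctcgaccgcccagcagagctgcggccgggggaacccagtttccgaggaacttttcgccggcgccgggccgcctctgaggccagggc
SCD, chr10:100346983-100347282, plus strand: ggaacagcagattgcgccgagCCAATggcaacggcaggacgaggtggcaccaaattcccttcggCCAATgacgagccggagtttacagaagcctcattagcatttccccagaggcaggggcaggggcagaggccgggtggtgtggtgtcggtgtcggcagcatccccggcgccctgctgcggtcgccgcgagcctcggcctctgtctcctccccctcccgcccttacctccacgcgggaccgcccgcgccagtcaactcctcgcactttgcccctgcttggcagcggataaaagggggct

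Motif matches were unevenly spread over these windows. The SREBF2 window held the match TCACCCCAC, starting 133 bases before the start site, with an NF-Y box 106 bases before it. It was the 1 lipid gene window of 26 with that element (3.85%), where 1.49% of 12051 genes with a window and an RNA-seq row held it. A gene with several windows was counted once, if any of them held the motif. NF-Y is a factor known to act together with SREBPs, and its box was in 20 of 26 lipid gene windows (76.9%) and in 42.8% of those 12051. MSMO1 had 4 such boxes, and STARD4, HMGCS1 and SCD had 2 each. INSIG1 had 1, 170 bases before its start, and an E-box 55 bases before its start. SREBF1 had 0 NF-Y boxes in its 1 window. That window lay at the annotated 5′ end of SREBF1, and starts inside the gene were not searched. The box was in 8 of 9 windows of genes higher in RNA-seq contrast 3, in 5 of 8 of those lower, and in 7 of 9 of those not called, so its presence did not separate the directions. The E-box was in 3 of 26 windows (11.5%) and in 11.9% of the 12051. GC-rich elements were common throughout: the SP1 box GGGCGG was in 25 of 26 lipid gene windows (96.2%), against 73%, and the AHR core GCGTG in 22 of 26 (84.6%), against 55.3%. These matches describe letters in a window and show no binding. Variant forms and sites outside the window were not searched, so a missing match does not show that a gene lacks the element. Promoters of FASN, ACAT2, FDFT1 and SQLE were not analysed here.

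In the mevalonate arm, mRNA of the early and late enzymes was higher in contrast 3. HMGCS1, the synthase that makes HMG-CoA, was 1.24-fold higher there, and IDI1, the isopentenyl diphosphate isomerase, was 1.29-fold higher, in the authors' deposited table. ACAT2, the cytosolic thiolase that starts the pathway, and FDPS, farnesyl diphosphate synthase, were each higher by a small margin, both at 1.06-fold in the authors' deposited table. PMVK, phosphomevalonate kinase, was lower at 0.870-fold, while MVK, mevalonate kinase, and MVD, mevalonate decarboxylase, were not called at 0.938-fold and 1.04-fold in the authors' deposited table. IDI1 was the 1 gene of the 30 with an upward mRNA call in contrasts 1, 2 and 3, at 1.10-fold, 1.12-fold and 1.29-fold in the authors' deposited table, and it had no downward call.

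HMGCS1 changed direction between contrasts. Its mRNA stood at 1.27-fold, 0.973-fold, 1.24-fold, 0.914-fold and 0.894-fold in contrasts 1 to 5 of the authors' deposited table, higher in contrasts 1 and 3, lower in 4 and 5, and not called in 2. In contrast 1 it was higher, and lower mRNA was called for MVK (0.786-fold), PMVK (0.902-fold) and FDPS (0.928-fold) in the authors' deposited table, so neighbouring steps of 1 pathway went opposite ways. In nascent RNA, FDPS was the 1 mevalonate gene called. It was lower in contrast 3 at 0.599-fold in the authors' deposited table (log2 -0.74 ± 0.19, Benjamini-Hochberg adjusted p = 0.0094). FDPS has 10 annotated pseudogene copies and IDI1 has 3, so reads may be shared between near-identical sequences and the values of both are uncertain. ACAT2, MVK and IDI1 overlap other coding genes, and strand use in counting is not stated in the labels.

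In the squalene and sterol arm, the mRNA increase in contrast 3 was again partial. MSMO1, the methylsterol monooxygenase that removes methyl groups from lanosterol derivatives, was 1.32-fold higher (log2 0.40 ± 0.06), and SQLE, squalene epoxidase, was 1.2-fold higher (log2 0.26 ± 0.02), in the authors' deposited table. SC5D, the sterol desaturase, was 1.18-fold higher, and NSDHL, a sterol dehydrogenase of the demethylation step, was 1.08-fold higher, in the authors' deposited table. Downward calls fell on LSS, lanosterol synthase, at 0.919-fold and DHCR7, the reductase of the last step to cholesterol, at 0.939-fold, in the authors' deposited table. FDFT1 (squalene synthase), CYP51A1, TM7SF2 (a sterol reductase), HSD17B7 (a sterol ketoreductase) and EBP (the sterol isomerase) were not called, between 0.980-fold and 1.05-fold in the authors' deposited table.

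DHCR7 and LSS were lower in most mRNA contrasts. DHCR7 stood at 0.861-fold, 0.946-fold, 0.939-fold, 0.926-fold and 0.892-fold in contrasts 1 to 5 of the authors' deposited table, with a call in each but contrast 2. LSS stood at 0.854-fold, 0.952-fold, 0.919-fold, 0.939-fold and 0.905-fold in the authors' deposited table and was called in contrasts 1, 3 and 5. The remaining calls of this arm were MSMO1 (1.14-fold) and NSDHL (1.10-fold) higher and TM7SF2 (0.838-fold) lower in contrast 1, SC5D (1.13-fold) higher in contrast 2 and FDFT1 (0.944-fold) lower in contrast 5, all from the authors' deposited table. MVD, CYP51A1, HSD17B7 and EBP were called in no RNA-seq contrast.

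HSD17B7 stood apart in nascent RNA. Its GRO-seq values were 1.5-fold, 2.39-fold, 3.21-fold, 1.81-fold and 1.36-fold in contrasts 1 to 5 of the authors' deposited table, all above 1, and it was called higher in contrasts 2 and 3 (log2 1.25 ± 0.27 and 1.68 ± 0.27, Benjamini-Hochberg adjusted p = 0.00282 and 0.000116). Its mRNA stood between 0.95-fold and 1.09-fold in the same contrasts of the authors' deposited table. HSD17B7 has 2 pseudogene copies, so its reads may be shared. The gene beside it, DDR2, 3296 bases away and chosen after its values were seen, stood at 0.566-fold and 0.453-fold in GRO-seq contrasts 2 and 3 of the authors' deposited table, without a call. SQLE was the other sterol gene called in nascent RNA, 1.86-fold higher in contrast 4 in the authors' deposited table (log2 0.90 ± 0.22, Benjamini-Hochberg adjusted p = 0.025). In that contrast 9 of 10 genes of this arm had a GRO-seq fold change above 1, and 1 of these was called. The median log2 of the 10 genes was 0.47, where the median of all genes was 0.01. In contrasts 1, 2, 3 and 5, the genes of this arm above 1 in GRO-seq were 2, 8, 4 and 5 of 10. Genes of an arm are not replicates, and the share of all genes above 1 was not counted.

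**Figure D4:**
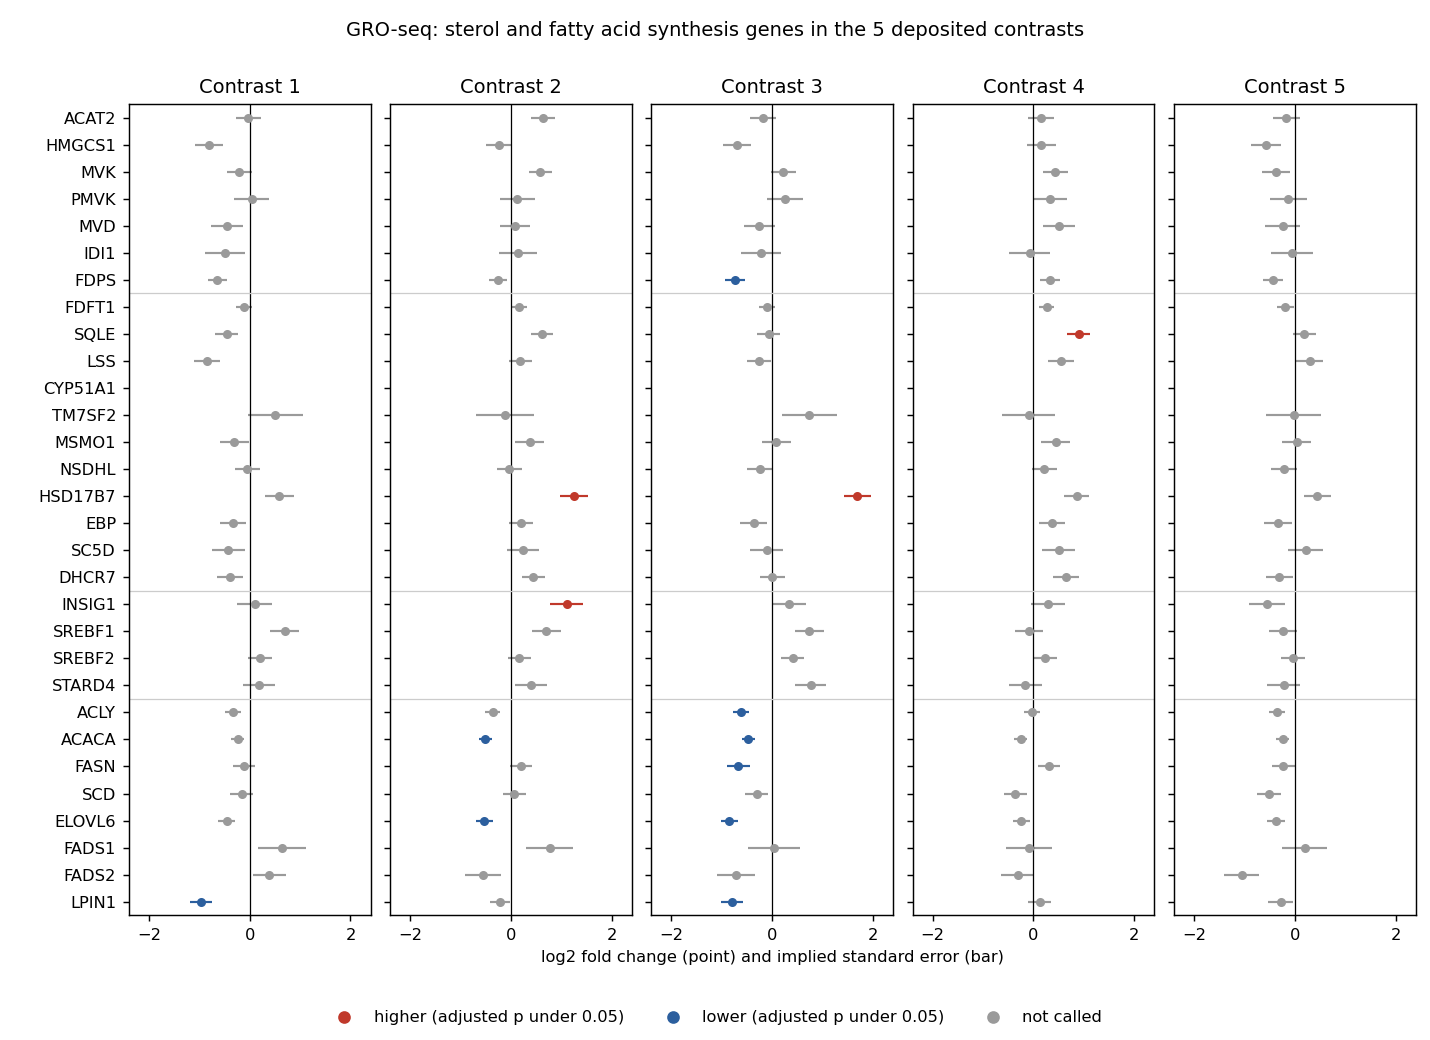
GRO-seq log2 fold change (points) and implied standard error (bars) of the 29 genes with a row, in contrasts 1 to 5, in the order mevalonate arm, squalene and sterol arm, regulators, lipogenic enzymes; CYP51A1 has no point. Coloured points are called, with HSD17B7 at 1.25 and 1.68 in contrasts 2 and 3, and 5 of the 8 lipogenic enzymes blue in contrast 3.

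Most calls of the lipogenic enzymes were downward. In RNA-seq, 5 of the 8 were lower (62.5%, against 10.9% of all genes) and 0 higher (against 10.5%) in contrast 5. In contrast 3, 4 were lower (50%, against 17.8%) and 1 was higher (12.5%, against 18.3%). In contrast 1, 3 were lower (37.5%, against 20.7%) and 2 higher (25%, against 23.2%). LPIN1, a phosphatidate phosphatase of glycerolipid synthesis that also acts as a coregulator, had the lowest mRNA value of the 30 genes. Its mRNA stood at 0.505-fold, 0.902-fold, 0.648-fold, 0.932-fold and 0.711-fold in contrasts 1 to 5 of the authors' deposited table, lower in each but contrast 4. Its nascent RNA was lower in contrasts 1 and 3, at 0.511-fold and 0.575-fold in the authors' deposited table (log2 -0.97 ± 0.22 and -0.80 ± 0.22), close to the mRNA values of the same contrasts. LPIN1 in contrasts 1 and 3, FASN in contrast 3 and INSIG1 in contrast 2 were the calls with the same direction in both assays.

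SCD, the desaturase that makes oleate, was lower in mRNA in contrasts 1, 3 and 5, at 0.689-fold, 0.829-fold and 0.805-fold in the authors' deposited table, and was not called in nascent RNA, between 0.703-fold and 1.05-fold there. FASN, fatty acid synthase, was lower in mRNA in contrasts 3, 4 and 5, at 0.88-fold, 0.913-fold and 0.842-fold in the authors' deposited table. ACLY, which makes cytosolic acetyl-CoA from citrate, was lower in mRNA in contrasts 1 and 5, at 0.923-fold and 0.937-fold in the authors' deposited table. ACACA, the carboxylase that makes malonyl-CoA, was 1.12-fold higher in mRNA in contrast 1 and 0.929-fold in contrast 5, where it was lower, in the authors' deposited table. The steps from citrate to saturated fatty acids, ACLY, ACACA and FASN, were thus all called lower in mRNA in contrast 5, together with SCD. ELOVL6, the elongase of palmitate, was 1.07-fold higher in mRNA in contrast 3 in the authors' deposited table and had no other mRNA call. The desaturases FADS1 and FADS2, which act on polyunsaturated fatty acids, moved little. FADS1 was 1.12-fold higher in contrast 1 and 0.948-fold, lower, in contrast 2, and FADS2 was 0.896-fold, lower, in contrast 3, in the authors' deposited table. The annotated ends of both genes overlap, and reads that fall in that overlap cannot be told apart without strand.

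In nascent RNA the lipogenic enzymes held most of the downward calls of contrast 3. ELOVL6 stood at 0.553-fold, FASN at 0.629-fold, ACLY at 0.654-fold and ACACA at 0.720-fold there in the authors' deposited table. With LPIN1, 5 of 8 were lower (62.5%, against 8.92% of all genes) and 0 higher (against 9.23%), with a median log2 of -0.64, where the median of all genes was -0.01. ACACA and ELOVL6 were also lower in GRO-seq contrast 2, at 0.703-fold and 0.694-fold in the authors' deposited table. FADS2 had the lowest GRO-seq value of the 30 genes, 0.481-fold in contrast 5 of the authors' deposited table, with an error of 0.35 on the log2 scale and no call.

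Nascent RNA and mRNA were set against each other gene by gene as the log2 fold change in GRO-seq minus that in RNA-seq, for 29 lipid genes and 13771 genes in both tables. Every such difference assumes that a contrast number means the same comparison in both assays, which the headers do not state. The difference was called for 7 lipid genes in contrast 3, where 26.1% of all genes were called, and for 8 in contrast 2, where 16.7% were. In contrast 1 it was called for 3 (background 9.37%), in contrast 4 for 1 (background 4.57%) and in contrast 5 for 0 (background 3.15%, with 1 lipid gene at an unadjusted p under 0.05). By the normal p used for these counts, the share of lipid genes was 24.1% in contrast 3, close to that of all genes. By the same p it was 27.6% in contrast 2, above that of all genes. With the Student p described below, 4 lipid genes were called in contrast 2, and the share over all genes with that p is not given here.

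Contrasts may share groups, so differences of 1 gene in several contrasts cannot be taken as independent observations. SREBF1 differed between the assays in contrasts 1, 2 and 3. The difference was 1.41 ± 0.29 in contrast 1, 0.93 ± 0.29 in contrast 2 and 1.12 ± 0.29 in contrast 3 on the log2 scale, each with nascent RNA above mRNA, and the Benjamini-Hochberg adjusted p-values were 0.000143, 0.0128 and 0.0012. SREBF1 overlaps RAI1, which was lower in GRO-seq contrasts 2 and 3 at 0.453-fold and 0.495-fold in the authors' deposited table. HMGCS1 differed the other way, by -1.16 ± 0.28 in contrast 1 and -1.01 ± 0.28 in contrast 3, with mRNA called higher and nascent RNA not called at 0.569-fold and 0.615-fold in the authors' deposited table. HSD17B7 differed by 1.16 ± 0.28 and 1.66 ± 0.28 in contrasts 2 and 3, and INSIG1 by 0.99 ± 0.32 in contrast 2.

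The other differences of contrast 3 were those of 4 enzymes. ELOVL6 differed by -0.96 ± 0.17, FDPS by -0.82 ± 0.20, ACLY by -0.60 ± 0.16 and ACACA by -0.46 ± 0.13 in contrast 3, all with nascent RNA below mRNA. ACACA differed by -0.40 ± 0.13 and -0.47 ± 0.13 in contrasts 1 and 2 as well. ELOVL6 and FDPS were called in opposite directions there, lower in nascent RNA and higher in mRNA. SQLE differed by 0.96 ± 0.22 in contrast 4. The normal approximation behind these p-values called too many genes when tested on simulated data. The errors were simulated from Student's distribution, so that outcome was built in and does not show which p suits the real data. With a Student p in its place, chosen after that test, the differences of ACACA in contrast 1 and of ACAT2, MVK, SQLE and ELOVL6 in contrast 2 were no longer called, and the others named here were, with Benjamini-Hochberg adjusted p-values up to 0.0406.

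**Figure D5:**
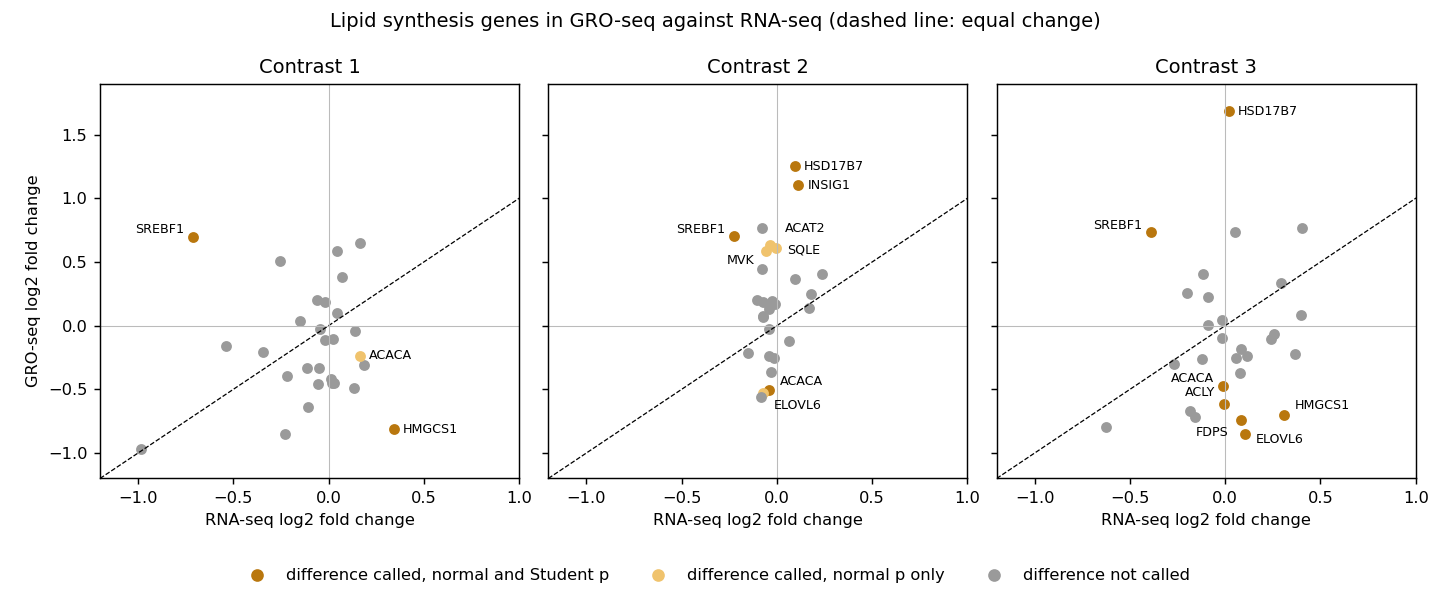
GRO-seq log2 fold change (y axis) against RNA-seq log2 fold change (x axis) of the 29 genes with a row in both tables, in contrasts 1, 2 and 3, with equal change as a dashed line. Named points differ between the assays, dark ones by both p-values and pale ones by the normal p alone, and SREBF1 lies at the upper left in each panel.

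Other genes of lipid metabolism, counted from lists chosen in the same way as the 30 genes, gave some context. Of 14 SREBP processing and degradation genes, 1 was higher (7.14%, against 18.3% of all genes) and 3 were lower (21.4%, against 17.8%) in RNA-seq contrast 3, with SCAP, the SREBP escort protein, at 0.913-fold in the authors' deposited table. Contrast 1 had 4 of the 14 higher and 4 lower in RNA-seq (28.6% each, against 23.2% higher and 20.7% lower of all genes). In RNA-seq contrast 5, 1 of the 14 was higher (7.14%, against 10.5% of all genes) and 2 were lower (14.3%, against 10.9%). SCAP was 1 of the 2 lower genes, at 0.932-fold in the authors' deposited table. Of 16 further sterol and isoprenoid genes, 6 were higher (37.5%, against 18.3%) and 5 lower (31.2%, against 17.8%) in RNA-seq contrast 3. Of 38 further fatty acid and glycerolipid genes, 9 were higher (23.7%) and 11 lower (28.9%) there, against the same shares of all genes. In RNA-seq contrast 5 the 16 sterol and isoprenoid genes had 2 higher (12.5%) and 3 lower (18.8%). The 38 fatty acid and glycerolipid genes had 6 higher and 6 lower there (15.8% each). Of all genes, 10.5% were higher and 10.9% lower in that contrast. ACSS2, which makes acetyl-CoA from acetate, was lower in RNA-seq contrasts 1, 3 and 5, at 0.789-fold, 0.813-fold and 0.812-fold in the authors' deposited table. Its nascent RNA was 1.93-fold higher in contrast 2 in the authors' deposited table. GPAT3, an acyltransferase of glycerolipid synthesis, was 0.171-fold in GRO-seq contrast 3, where it was lower, and 2.54-fold higher in RNA-seq contrast 3, in the authors' deposited table.

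The list of sterol efflux genes covered LXR, an oxysterol receptor that also drives SREBF1 in liver, and its targets. In RNA-seq contrast 3, 5 of 9 were lower (55.6%, against 17.8% of all genes) and 0 higher (against 18.3%), with the cholesterol exporters ABCG1 at 0.547-fold and ABCA1 at 0.575-fold in the authors' deposited table. Contrast 5 gave 3 of 9 lower (33.3%, against 10.9%) and 0 higher (against 10.5%) in RNA-seq, with ABCG1 at 0.666-fold in the authors' deposited table. For nascent RNA, contrast 3 gave 3 of 9 higher (33.3%, against 9.23%) and 0 lower (against 8.92%), with ABCA1 at 12.3-fold and ABCG1 at 4.29-fold in the authors' deposited table. Fatty acid oxidation genes in contrast 3 had 5 of 22 higher (22.7%, against 9.23% of all genes) and 0 lower (against 8.92%) in GRO-seq. In RNA-seq 2 of 23 were higher (8.7%, against 18.3%) and 7 lower (30.4%, against 17.8%). The difference between the assays was not tested for these lists. DECR1, an enzyme of unsaturated fatty acid oxidation, stood at 2.42-fold in GRO-seq and 0.839-fold in RNA-seq there, in the authors' deposited table, and was called in both.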

How the data were processed

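GRO-seq and RNA-seq were each made from 24 libraries in 6 groups of 4. One treatment text gives the short exposure another length than the titles and characteristics, which give 3 hours and were followed. Per the file headers, the deposited tables list linear fold changes, each with a p-value before adjustment, under 5 contrast numbers. The authors do not name the groups there. Per the submitters' processing notes, RNA-seq went through STAR and DESeq, and GRO-seq through BWA 0.7.16a, featureCounts and limma, both on GRCh38. Settings, filters and use of strand were not given in the sources used here. Fold changes from fits of this kind can be moved towards 1 for genes with few reads, and depth is unknown.

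Benjamini-Hochberg adjustment of the p-values ran over all genes with a symbol in a contrast; 156 RNA-seq rows without one (0.994%) were left out. Implied standard errors are the size of the log2 fold change over the Student quantile at the p-value, with 25 (GRO-seq) and 31 (RNA-seq) degrees of freedom, at which a gene's 5 errors varied least. The assay difference used both errors and a two-sided normal p. In data simulated with Student errors, 30 of its 257 calls had no planted difference over 13771 genes. For a Student p with Satterthwaite degrees of freedom, added afterwards, it was 6 of 219. Alternatives were other thresholds of the adjusted p, a minimum of 1.2-fold, all rows, the genes at or below the median error, centring on the median and 18 degrees of freedom. Motifs were searched on both strands. Every one of the 30 genes could be named; of other lists, at most 4 called genes with the smallest adjusted p per assay and contrast, and neighbours were chosen after their values were seen. The genes and lists were chosen with earlier results of these data known. Gene positions come from RefSeq GRCh38.p14. The tools were scipy 1.17.1, matplotlib 3.10.9, pandas 2.3.3, numpy 2.4.6 and Python 3.11.15.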

Additional observations from a re-analysis of the deposited data

How the results depend on the processing

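Only centring on the median moved the fold changes themselves. The medians were smaller in size than every called change, so no called value could change sign. Counts of lipid genes called, both directions together, stayed within 1.5 times in both assays under adjustment over all rows, restriction to the genes at or below the median error, and centring on the median, and counts of assay differences did so under centring, which was the only one of these 3 run for them. The split by direction moved in RNA-seq contrast 2, with 3 higher and 6 lower (from 4 and 3) among the genes at or below the median error. With an adjusted p under 0.01, the GRO-seq counts became 0 (from 1) in contrast 1, 2 (from 4) in contrast 2, 4 (from 7) in contrast 3 and 0 (from 1) in contrast 4, the RNA-seq counts 3 (from 7) in contrast 2 and 1 (from 4) in contrast 4, and the count of assay differences 2 (from 8) in contrast 2. With an adjusted p under 0.1, GRO-seq gave 8 in contrast 2, 6 higher and 2 lower (from 2 and 2), and 2 in contrast 4, and the assay difference 3 in contrast 4. When a change of at least 1.2-fold was also required, RNA-seq gave 5 (from 16), 0 (from 7), 8 (from 20), 0 (from 4) and 2 (from 12) in contrasts 1 to 5, so most mRNA calls rest on changes smaller than that. A Student p gave 4 assay differences in contrast 2, and 18 degrees of freedom gave 2 in contrast 4. No paired analysis was possible because the tables hold no values per library, and for the same reason no replicate could be left out.

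Errors in GRO-seq were several times those in RNA-seq, so a gene called in mRNA alone is not shown to differ in nascent RNA unless the difference itself was called. Reads shared with overlapping genes or pseudogene copies cannot be told apart from a gene's own.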
